A study of Arabidopsis thaliana with 39 samples.

Results

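Seedlings of Arabidopsis thaliana ecotype Col-0 that had received 20 mM L-glutamate (L-Glu) for 12 h were compared with seedlings that had received 20 mM urea for 12 h. The comparison rests on 6 RNA-seq libraries, 3 per treatment, out of 39 in the series, and on all 20001 genes of the deposited table. The series was designed to find genes that respond to L-Glu at 6, 12, 24 or 48 h, and it also holds a mock group at 0 h and groups given 1 mM salicylic acid (SA). All groups shared the ecotype, an age of 14 days, continuous light at 23 °C, seed cold treatment for 2 days and a liquid culture, per the labels, which name soil or medium with 1% sucrose for sowing. No transgene or mutation was used, and urea at the same molar dose is the control, so the comparison is between 2 nitrogen compounds and not with untreated plants. Whole seedlings were sequenced in bulk, in which fewer cells of a type and less RNA per cell cannot be told apart.

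Glutamate is the amino acid from which plants make glutamine, proline and 4-aminobutyrate (GABA), and ammonium enters organic form through it. It also acts outside cells as a signal: glutamate receptor-like (GLR) proteins are membrane channels that respond to amino acids and carry calcium, and glutamate released at a wound triggers calcium waves that travel along the plant. Calcium signals, in turn, activate protein kinases and transcription factors of the immune and wound responses.

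Values are the authors' normalized signals per gene, which are not per length, so levels are compared between libraries and not between genes. Differences are given as log2 fold changes of L-Glu over urea on the log2(value + 1) scale, with ± for the standard error (SE), and they understate the change of genes with low values. Levels given as a mean carry ± for the standard deviation (SD) of 3 libraries, and values for single libraries follow the order of replicates 1, 2 and 3. A gene was called when the Benjamini-Hochberg adjusted p of a limma fit over all 20001 genes was below 0.05, and rose, fell, higher and lower refer to such calls. Nothing in the labels ties replicates to separate cultures, and p-values here therefore reflect only the spread among the libraries, part or all of which may be technical.

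The 6 libraries separated by treatment. Pearson correlations of log2 values lay between 0.963 and 0.968 within each treatment and between 0.738 and 0.777 across the treatments, and the first principal component, which held 83.4% of their variance, separated L-Glu from urea. Summed signal was 2745182 to 2795168 in the urea libraries and 3682591 to 3936728 in the L-Glu libraries, while the median signal was 47.6 to 48.0 and 55.1 to 56.9. The larger sum came from gains of 1840171 units over genes that were on average higher in L-Glu and changes of -807279 units over the others. Of the gains, 9.15% lay in 10 genes and 36.7% in 100 genes. Depth in reads is unknown, because the deposited values are not counts.

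**Figure D1:**
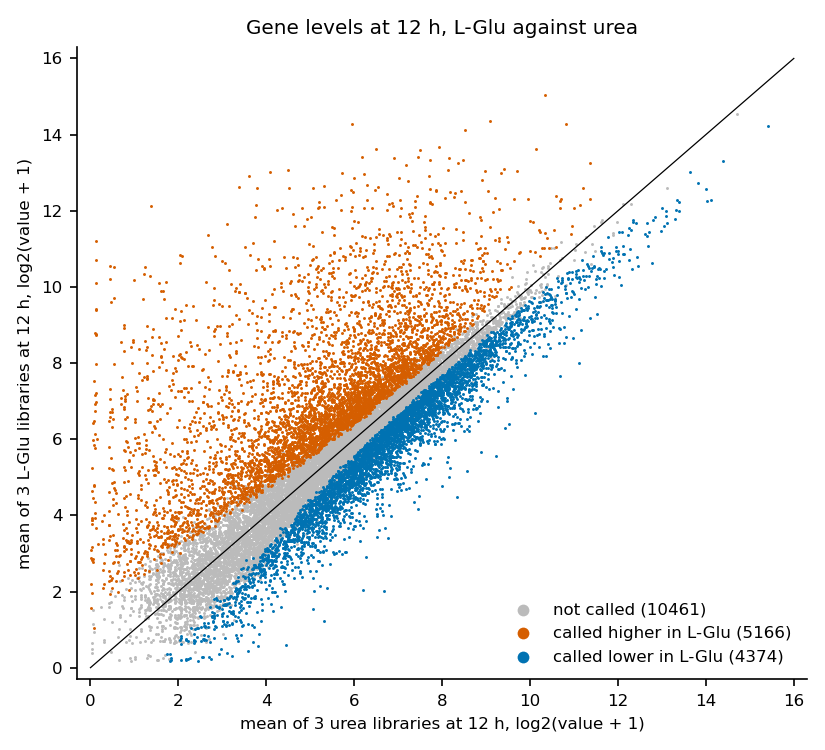
Mean signal of each of the 20001 genes in 3 urea libraries (x axis) and 3 L-Glu libraries (y axis) at 12 h, both as log2(value + 1), with the line of equality. The 5166 genes called higher spread up to 11.05 log2 units above the line, whereas the 4374 genes called lower lie within 4.76 units below it.

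In L-Glu, 9540 of 20001 genes were called (47.7%), 5166 higher (25.8%) and 4374 lower (21.9%). The response was lopsided in size: 1019 genes (5.09%) rose at least 8-fold and 28 (0.14%) fell as far, and 362 genes (1.81%) rose at least 32-fold while 0 fell as far. The median over all genes was -0.04. The split between higher and lower depended on the scaling: 54.2% of called genes were higher as deposited, 53.9% with recomputed trimmed-mean factors, 37.6% after quantile normalization (4200 higher and 6965 lower) and 28.4% when all libraries were scaled to a common sum (3339 and 8412, called same-total scaling here). These last 2 scalings moved the median of all genes to -0.29 and -0.47, so a small change on the log2 scale has a direction only relative to that shift. All 3 L-Glu libraries lay above all 3 urea libraries for 5965 genes (29.8%) and below them for 5648 (28.2%). Among the 100 genes with the most signal in urea, 85 fell and 2 rose, whereas among the 100 with the most signal in L-Glu, 86 rose and 10 fell, and 16 genes were in both sets. There were 17 genes below 1 in every urea library and above 100 in every L-Glu library, and 0 with the reverse pattern. The floor differed by library: the number of genes at exactly 0 was 232, 0 and 204 in the urea and 0, 0 and 0 in the L-Glu libraries. A value well below 1 in urea replicate 2 can thus stand at the floor, as 0 does in urea replicates 1 and 3.

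The genes with the highest fold changes were near 0 in urea and high in L-Glu. RRTF1 (AT4G34410), an ERF-type transcription factor known from redox responses, had values of 0, 0.275 and 0 in urea and 1456, 1559.5 and 1976 in L-Glu (log2 fold change 10.57 ± 0.68, adjusted p 1.47e-14). ACS8 (AT4G37770), an ACC synthase of the rate-limiting step of ethylene synthesis, had 0.847, 0.265 and 0 in urea and 1555, 1408 and 1565 in L-Glu (log2 fold change 10.15 ± 0.69, adjusted p 3.68e-14). BHLH92 (AT5G43650), a basic helix-loop-helix factor, had 3.76, 0.278 and 0 in urea and 1217, 1081 and 2111 in L-Glu (log2 fold change 9.59 ± 0.70, adjusted p 2.41e-13). In each of these 3 genes no L-Glu library was below 1081 and no urea library was above 3.76. The highest fold change of all was that of AT5G55150, an F-box protein of the DUF295 family, at 0, 0.28 and 0 in urea and 2194, 1866 and 2959.6 in L-Glu (log2 fold change 11.05 ± 0.79, adjusted p 1.28e-13). AT5G52050, a MATE-type efflux carrier, had 0, 2.4 and 2.37 in urea and 4395, 4184 and 4815 in L-Glu (log2 fold change 10.95 ± 0.71, adjusted p 1.7e-14). Urea library 1 listed AT5G52050 at 0, and libraries 2 and 3 agreed closely. The other genes of the highest 12 were AT1G30190, AT5G24640, AT1G33760 (an AP2/ERF-type factor), the cytochrome P450 CYP81D8, WRKY30, ACS2 and sks8, with log2 fold changes from 9.29 to 10.09. CYP81D8 was the steadiest of them, at 7458, 7882 and 7757 in L-Glu against 17.4, 5.57 and 10.6 in urea.

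The genes with the lowest fold changes came from several families. AT5G62360, of the invertase and pectin methylesterase inhibitor family, had values of 79.1, 108 and 116 in urea and 1.2, 4.76 and 3.08 in L-Glu (log2 fold change -4.76 ± 0.50, adjusted p 9.39e-10). GASA6, a gibberellin-regulated peptide gene that promotes elongation, had 74.2, 71.5 and 70.8 in urea and 7.14, 0.805 and 1.39 in L-Glu (log2 fold change -4.48 ± 0.44, adjusted p 2.49e-10). The expansin gene EXPA8, whose class of proteins loosens cell walls, had 22.4, 25.3 and 48.8 in urea and 2.56, 2.02 and 1.08 in L-Glu (log2 fold change -3.47 ± 0.42, adjusted p 1.94e-08). In all 3 the L-Glu libraries lay below every urea library, and most were close to the floor of the scale. A pair of pectin lyase-like genes, AT1G10640 and AT5G63180, fell by 4.13 and 3.35 log2 units, and the SAUR-like AT2G21210 fell by 3.75. Of genes with more signal, the metallothionein MT3 went from 1221, 1039 and 1033 to 57.1, 96 and 151 (log2 fold change -3.53 ± 0.29, adjusted p 3.4e-12). ESM1, a modifier of glucosinolate breakdown, went from 274, 486 and 373 to 24.7, 48.08 and 32 (log2 fold change -3.41 ± 0.33, adjusted p 1.98e-10). AT3G62550, AT1G73120, AT1G72645 and AT2G26695 complete the lowest 12, with log2 fold changes between -4.04 and -3.44.

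**Figure D2:**
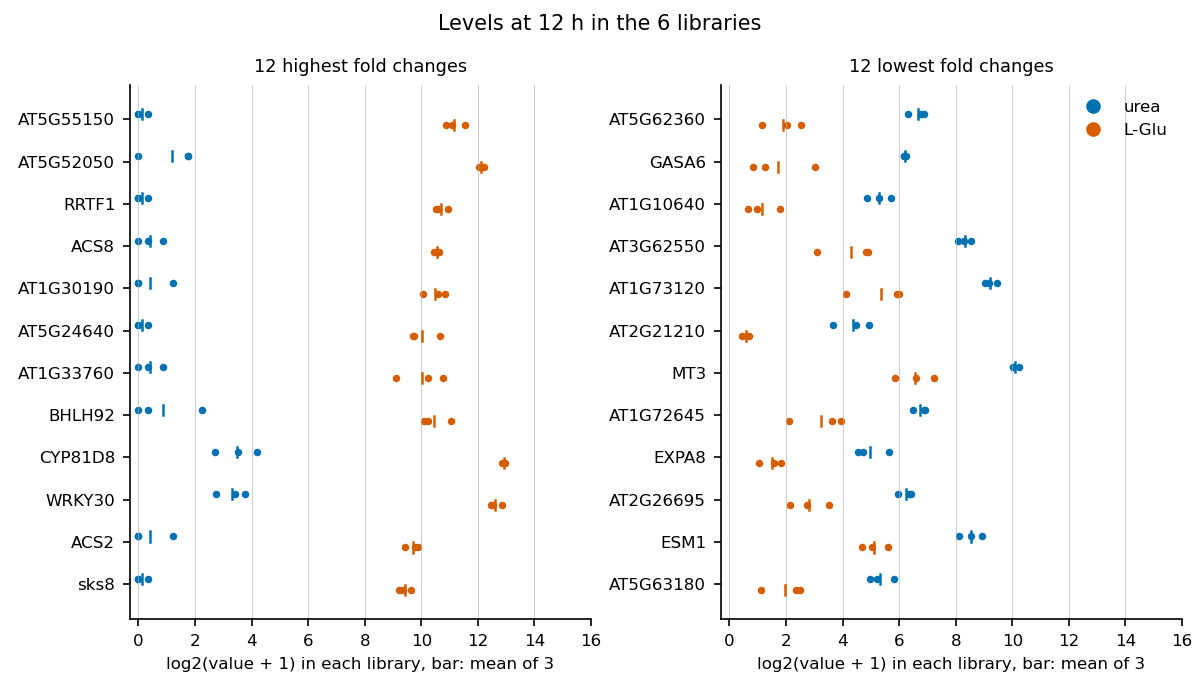
Signal in each of the 6 libraries (x axis, log2(value + 1)) for the 12 genes with the highest and the 12 with the lowest fold changes among called genes without overlap; dots are libraries and bars are means of 3. In each gene the treatments are separated, and the urea values of the genes that rose lie mostly below 2.

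The largest gains in signal fell on genes that were already expressed. TCH3, a calmodulin-like protein named for its induction by touch, went from 1650.3, 1149 and 1068 to 31251, 28979.8 and 41609.6 (log2 fold change 4.73 ± 0.30, adjusted p 6.94e-15). ABCC3, a transporter of glutathione conjugates, went from 620.1, 464 and 547 to 21864, 20561 and 20875 (log2 fold change 5.29 ± 0.41, adjusted p 7.74e-13). BCS1, an outer mitochondrial membrane AAA protein also known as OM66, went from 78.7, 40.4 and 63 to 20656, 16910.4 and 22156 (log2 fold change 8.38 ± 0.62, adjusted p 3.38e-13). None of these genes was below 16910.4 units in any L-Glu library. HIR2, ABCB4 (an auxin carrier), the zinc finger gene SZF1, XBAT34 and the touch-inducible cell wall gene TCH4 followed, with log2 fold changes of 3.48, 5.59, 5.94, 7.16 and 6.26. The largest losses were in photosynthesis genes, described further on.

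To show what lies before the start of genes named in this report, promoters of 4 of them are printed. They were read from RefSeq (TAIR10.1) as the 250 bases before the annotated gene start, 5′ to 3′ on the gene's strand. They were chosen after the motif counts were seen, from ethylene and transcription factor genes, and not by rank of fold change. All 4 hold a W-box core, as defined next, whereas RRTF1 and ACS2, with higher fold changes than ACS6, hold none and are not printed. Capitals mark 5 motifs searched on both strands: TTGACC and TTGACT, the W-box cores bound by WRKY factors, GCCGCC, bound by ERF factors, CACGTG, the G-box of bHLH and bZIP factors, and ACGCGT, an element of the kind bound by calmodulin-binding CAMTA factors. GGTCAA and AGTCAA are TTGACC and TTGACT read on the opposite strand, and CACGTG and ACGCGT read the same on both strands. The positions are chr4:17751829-17752078, plus strand for ACS8, chr4:6863729-6863978, plus strand for ACS6, chr5:17534797-17535046, minus strand for BHLH92 and chr5:8154711-8154960, minus strand for WRKY30.
ACS8: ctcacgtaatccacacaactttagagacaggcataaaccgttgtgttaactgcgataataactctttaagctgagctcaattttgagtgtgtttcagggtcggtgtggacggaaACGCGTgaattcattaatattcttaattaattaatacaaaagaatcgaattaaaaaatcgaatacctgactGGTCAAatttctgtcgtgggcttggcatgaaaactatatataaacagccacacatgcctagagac
ACS6: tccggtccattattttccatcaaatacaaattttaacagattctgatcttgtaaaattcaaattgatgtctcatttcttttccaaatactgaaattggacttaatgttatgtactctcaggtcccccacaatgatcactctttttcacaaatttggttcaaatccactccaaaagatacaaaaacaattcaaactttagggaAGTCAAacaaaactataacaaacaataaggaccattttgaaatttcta
BHLH92: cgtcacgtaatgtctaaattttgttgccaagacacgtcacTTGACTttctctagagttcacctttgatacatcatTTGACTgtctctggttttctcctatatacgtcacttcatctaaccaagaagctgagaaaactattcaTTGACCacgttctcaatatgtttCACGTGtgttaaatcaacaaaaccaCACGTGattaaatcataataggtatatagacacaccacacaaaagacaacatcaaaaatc
WRKY30: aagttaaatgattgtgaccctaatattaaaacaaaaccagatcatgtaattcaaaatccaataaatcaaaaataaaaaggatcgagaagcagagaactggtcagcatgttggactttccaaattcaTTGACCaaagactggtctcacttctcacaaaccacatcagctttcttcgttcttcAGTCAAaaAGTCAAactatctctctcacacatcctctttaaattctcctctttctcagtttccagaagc

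ACS8 held 1 TTGACC and 1 ACGCGT, ACS6 held 1 TTGACT, WRKY30 held 2 TTGACT and 1 TTGACC, and BHLH92 held 2 TTGACT, 1 TTGACC and 2 CACGTG. The windows of ACS7 and ACS11 had 1 W-box core each, that of RRTF1 had 1 CACGTG, and in those of ACS2, ICS1 and LHT1 none of the 5 motifs was found, which says only that these letters are not in this window. A W-box core was found in 28.7% of the 19658 promoters read, in 37.2% of those of genes called higher, in 50.3% of those of genes at least 8-fold higher, in 22.6% of those of genes called lower and in 26.9% of those of genes not called. ACGCGT was in 1.84% of all promoters, 3.55% of those of genes called higher, 6.73% of those at least 8-fold higher and 1.15% of those called lower. GCCGCC was in 1.93% of all promoters and in 1.73% of those of genes called higher, and CACGTG in 7.34% and 7.12%. These shares describe the letters found and were not tested, and a match does not show that a factor binds there.

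Ethylene is made in a pair of steps, from S-adenosylmethionine to ACC by ACC synthases and from ACC to ethylene by ACC oxidases. Counts of called genes at 12 h, here and in the paragraphs on gene groups below, stand beside 25.8% of all genes higher and 21.9% lower. The ACC synthases with a value, 5 genes, rose in full, with a median log2 fold change of 8.95 against -0.04 over all genes, and their summed signal was 127 to 231 in urea and 22370 to 23430 in L-Glu. ACS7 was at 159, 129 and 68.7 in urea and 10984, 10194 and 11153 in L-Glu (log2 fold change 6.57 ± 0.43, adjusted p 1.73e-14). ACS6, an isoform stabilized by MAP kinases, had 70.9, 32 and 51.5 in urea and 7843, 9137 and 7228 in L-Glu (log2 fold change 7.33 ± 0.57, adjusted p 9.92e-13). ACS11 went from 0.849, 2.39 and 6.43 to 2091, 1745 and 1542 (log2 fold change 8.95 ± 0.80, adjusted p 2.17e-11), and ACS2 from 0, 1.33 and 0 to 689, 947 and 878. In these isoforms every L-Glu library was above every urea library by more than an order of magnitude. Of 4 ACC oxidases 0 rose and 1 fell, and ACO4 was at 903, 919 and 1039 in urea and 1057, 1337 and 1167 in L-Glu (log2 fold change 0.31 ± 0.17, adjusted p 0.128), with a negative sign under quantile and same-total scaling. Of 11 receptor and signalling genes 3 rose, near the share of all genes, and 1 fell. The receptor gene EIN4 rose from 98.3, 108 and 74.8 to 222, 176 and 216 (log2 fold change 1.13 ± 0.17), and EIN2, the central membrane protein of the pathway, was at 425, 408 and 492 in urea and 416, 405 and 401 in L-Glu (log2 fold change -0.11 ± 0.15, adjusted p 0.565).

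Jasmonate, the wound hormone, is made from linolenic acid by lipoxygenases (LOX), allene oxide synthase and cyclases (AOC), and its responses are held in check by JAZ repressors. Of 33 jasmonate genes 22 rose and 4 fell (median 0.81). The lipoxygenase gene LOX4 had values of 22.3, 14 and 11.4 in urea and 8904, 8094 and 7909 in L-Glu (log2 fold change 8.99 ± 0.69, adjusted p 6.77e-13), and LOX3 had a mean of 38.7 ± 17.7 in urea and 1108, 832 and 1290 in L-Glu (log2 fold change 4.83 ± 0.30, adjusted p 7.59e-15). Among 11 repressor genes 9 rose, with JAZ5 at 8.62, 3.45 and 0.763 in urea and 475, 398 and 793 in L-Glu and JAZ7 at 0.865, 0.212 and 0.855 in urea and 118, 135 and 342 in L-Glu. JAZ1 went from 131, 107 and 92.4 to 2406, 2174 and 3432 (log2 fold change 4.57 ± 0.32, adjusted p 6.4e-14). Of 11 synthesis genes 6 rose and 3 fell, and of 8 genes for factors and outputs 6 rose and 0 fell (median 1.3). CYP94C1, which oxidizes and inactivates the hormone, rose too (log2 fold change 5.96 ± 0.49, adjusted p 4.02e-12). AOC1 was at 308, 277 and 400.5 in urea and 225, 320.3 and 248 in L-Glu (log2 fold change -0.31 ± 0.22, adjusted p 0.264). VSP2, a storage protein used as a marker of the MYC branch of jasmonate output, was at 1.87, 15.9 and 0.272 in urea and 2.49, 5.75 and 8.45 in L-Glu (log2 fold change 0.62 ± 0.73, adjusted p 0.511), with overlap between the treatments. PDF1.2, the usual marker of the other branch, was not analysed here.

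SA is made in the chloroplast from isochorismate (ICS1), exported by EDS5 and completed by PBS3, and N-hydroxypipecolic acid (NHP), which carries resistance to distant leaves, is made from lysine by ALD1 and FMO1. Of 24 genes of SA and NHP 17 rose and 2 fell (median 3.27), with 6 of 7 synthesis genes and their regulators among the rising ones. All 7 signalling genes rose. Of 3 markers 1 rose (log2 fold change 1.84) and 0 fell, on a summed signal of 7.49 to 34.4 in urea and 23.2 to 63.6 in L-Glu. ICS1 had values of 59.2, 70 and 49.8 in urea and 3729, 4176 and 4296 in L-Glu (log2 fold change 6.08 ± 0.33, adjusted p 3.73e-16). PBS3 had 27.1, 44.7 and 44.9 in urea and 5826, 4923 and 8490.3 in L-Glu (log2 fold change 7.33 ± 0.47, adjusted p 1.34e-14), and the transcription factor gene CBP60G, which drives ICS1, had 52.4, 70 and 55.6 in urea and 6061, 5438 and 6262 in L-Glu (log2 fold change 6.62 ± 0.36, adjusted p 3.73e-16). In each of these genes every L-Glu library was far above every urea library. SARD1, the partner of CBP60G, EDS5, FMO1 and ALD1 rose with log2 fold changes of 6.14 ± 0.32, 5.36 ± 0.29, 6.55 ± 0.52 and 6.38 ± 0.67.

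PR1, a secreted antimicrobial protein gene used as the standard readout of SA, was at 1.82, 19.3 and 0 in urea and 6.25, 24 and 6.77 in L-Glu, with overlap between the treatments (log2 fold change 1.54 ± 0.86, adjusted p 0.14), and without urea replicate 2, the highest urea library, its log2 fold change was 2.74 with an adjusted p of 0.0098. At 6 h PR1 was called higher, with means of 1.08 ± 1.12 in urea and 40.1 ± 36.0 in L-Glu (log2 fold change 3.655 ± 0.86, adjusted p 0.00332). It was not called at 24 h (-1.43 ± 0.86, adjusted p 0.151), and neither was its change from 6 to 12 h (-2.115 ± 1.22, adjusted p 0.256). Beside these values, the 3 libraries of seedlings given 1 mM SA for 12 h had a mean PR1 signal of 13277 ± 297 and a mean ICS1 signal of 60.3 ± 3.82. LURP1, known from SA-dependent defence, is not among the 24 listed genes and is named for its change with time. It was at 44.6, 131 and 6.46 in urea and 1.99, 41.7 and 3.8 in L-Glu. Its call as lower (log2 fold change -2.07 ± 0.82, adjusted p 0.0377) held in 11 of 20 alternative analyses. Among others, it was lost without urea replicate 1 or 2, without L-Glu replicate 1 or 3 and in a fit of these 6 libraries alone (adjusted p 0.095). SA-treated seedlings had 4667 ± 806. Doses differ between the treatments (20 mM and 1 mM), and the values are given side by side only.

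Pattern-triggered immunity is the response to microbial and damage signals at the cell surface. Of 33 genes 27 rose and 2 fell (median 2.69), and the counts were 27 and 2 under quantile and 27 and 2 under same-total scaling. All 10 receptors and partners rose. SOBIR1, the adaptor kinase of receptor-like proteins, had 184, 158 and 153 in urea and 4941, 4096 and 4153 in L-Glu (log2 fold change 4.73 ± 0.27, adjusted p 9.84e-16), and PEPR1, the receptor of the Pep danger peptides, had 84.6, 81.7 and 92.4 in urea and 2399, 1702 and 2542 in L-Glu (log2 fold change 4.65 ± 0.30, adjusted p 1.79e-14). PROPEP3, the precursor of such a peptide, had 8.63, 2.37 and 0.81 in urea and 58.8, 110.5 and 92.8 in L-Glu (log2 fold change 4.46 ± 0.72, adjusted p 3.6e-06). Of the 5 genes for such precursors 2 rose, PROPEP3 and PROPEP2 (log2 fold change 3.25), and PROPEP5 fell (-2.16). The call of PROPEP5 held in 17 of 20 alternative analyses and was lost, among others, without L-Glu replicate 2 (adjusted p 0.054). Of 7 cytoplasmic kinases and MAP kinases 6 rose, with MPK11 at 4.98 ± 0.33. The E3 ligases PUB22 and PUB23, which limit the same signalling, rose from 126, 132 and 76.8 to 2701, 2801 and 2199 and from 112, 62.7 and 56.4 to 5506, 4268 and 5194. Camalexin, the indole phytoalexin of this species, gave a mixed picture, with 6 of 18 genes of camalexin and indole metabolism higher and 2 lower (median 0.29, and -0.16 under same-total scaling). MYB51, a regulator of indole glucosinolates, rose by 3.45 ± 0.32 log2 units, and CYP71A13 and PAD3 of camalexin synthesis rose by 3.81 ± 0.84 and 1.8 ± 0.49, from urea means of 0.759 ± 1.31 and 45.2 ± 11.2. Of 11 aliphatic glucosinolate genes 1 rose and 4 fell.

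**Figure D3:**
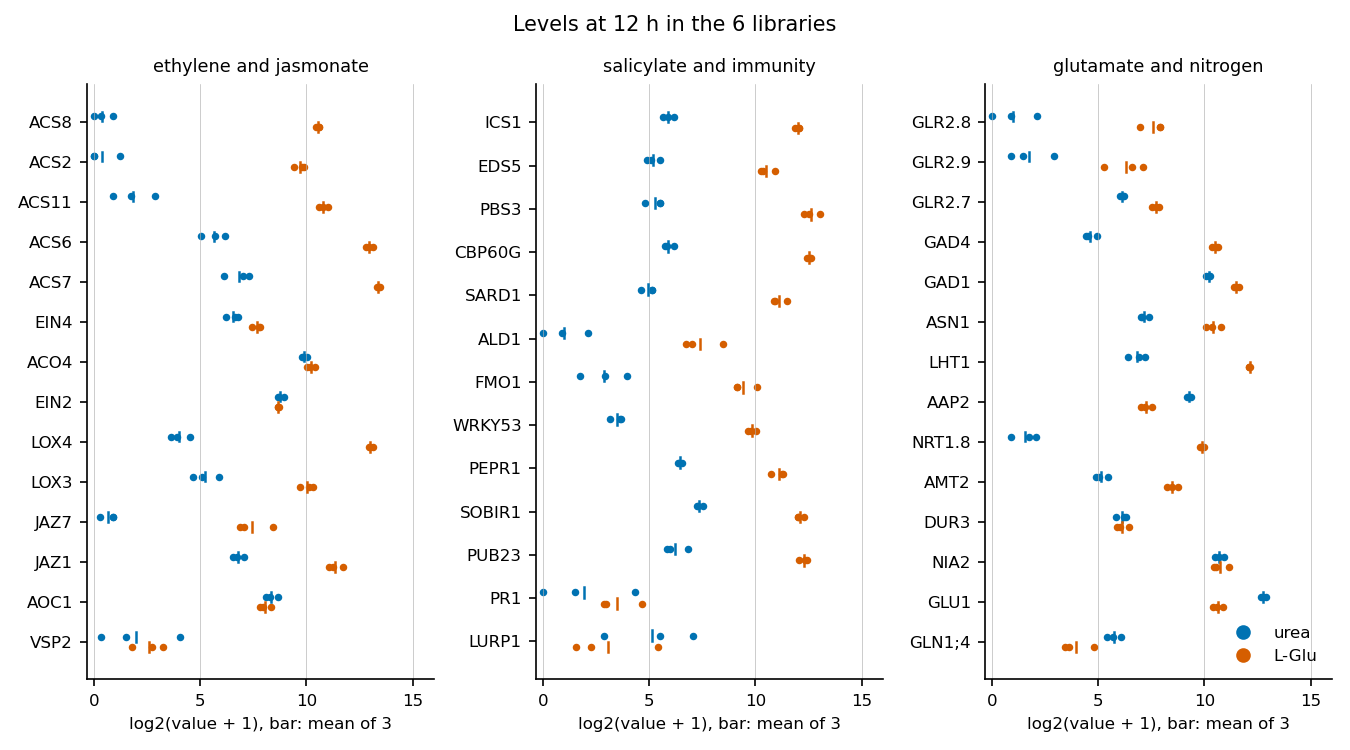
Signal in each of the 6 libraries (x axes, log2(value + 1)) for genes of ethylene and jasmonate, of salicylate and immunity, and of glutamate and nitrogen; dots are libraries and bars are means of 3. The 5 ACC synthases, ICS1, PBS3 and LHT1 are separated by several log2 units, whereas PR1, VSP2, DUR3 and NIA2 overlap between the treatments.

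Several transcription factor families act in these responses. The counts that follow stand beside 25.8% of all genes higher and 21.9% lower. Of 60 WRKY genes 36 rose and 1 fell (median 1.92). WRKY30 had values of 12.5, 9.79 and 5.65 in urea and 7364, 5984 and 5645 in L-Glu (log2 fold change 9.31 ± 0.67, adjusted p 1.44e-13), and WRKY46 had 19.3, 14 and 20.4 in urea and 3341, 2713 and 6472 in L-Glu (log2 fold change 7.70 ± 0.52, adjusted p 3.3e-14). WRKY40, a repressor of immune genes, went from 19.3, 9.8 and 18.7 to 1524, 1464 and 1494, and WRKY53, known from leaf senescence, from 11.5, 11.9 and 8.06 to 878, 1039.7 and 809.7. WRKY55 was listed at 0 in urea libraries 1 and 3 and reached 231, 269 and 256 in L-Glu. Of 45 ERF genes 29 rose and 2 fell (median 1.2), among them ERF13 at 7.73 ± 0.96 and CBF2, a cold-response factor, at 6.23 ± 0.65. The counts were 25 higher and 3 lower of 61 NAC genes (median 0.32, and -0.13 under same-total scaling) and 23 higher and 9 lower of 76 MYB genes (median 0.32, and -0.07). Under same-total scaling they were 21 and 19 for NAC and 18 and 18 for MYB. NAC061 and NAC036 rose by 6.79 ± 0.53 and 6.08 ± 0.47 log2 units. MYB15, which drives lignin deposition in immunity, went from 7.66, 4.51 and 10.5 to 2774, 2839 and 3954 (log2 fold change 8.59 ± 0.89, adjusted p 7.39e-10), and MYB77, a factor of auxin responses, rose by 7.03 ± 0.69. HSF A4A, a heat shock factor, rose from 57.3, 64.8 and 41.6 to 1710.3, 1677 and 1652, and 6 of 13 heat shock factors rose.

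Surface and intracellular receptor genes rose in large numbers. Of 36 cysteine-rich receptor-like kinases (CRK) 27 rose and 1 fell (median 2.59). CRK38 was listed at 0, 0.267 and 0 in urea and reached 635, 555 and 821 in L-Glu (log2 fold change 9.26 ± 0.68, adjusted p 2.7e-13). CRK36 went from 29.1, 46.8 and 30.2 to 3931, 4273 and 4803 (log2 fold change 6.93 ± 0.56, adjusted p 2.16e-12), and CRK14 from 1.82, 5.57 and 4.81 to 731, 813 and 635. CRK36 to CRK39 lie within the same region of chromosome 4 (TAIR10.1, 2231717 to 2262320) and were all higher, with CRK37 at 5.47 and CRK39 at 6.65. Of 32 lectin receptor kinases 21 rose and 1 fell (median 1.67), and the member AT3G53810 rose from 45.6, 39.4 and 29.3 to 1429, 1656 and 1264. Of 76 TIR-NBS-LRR proteins, intracellular immune receptors, 56 rose and 2 fell (median 1.73). AT5G41750 went from 44.6, 32 and 30.2 to 5552, 4499 and 4442 (log2 fold change 7.06 ± 0.43, adjusted p 4.82e-15), with its neighbour AT5G41740 on chromosome 5 at 5.85, and AT4G11170 went from 10.6, 8.75 and 14.6 to 1656, 2045 and 1748. Reads shared by near-identical family members cannot always be assigned to a single copy, so single members are less certain than the family count.

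Glutamate receptor-like channels and calcium signalling genes are described here as one group. Of 15 GLR genes 7 rose and 2 fell (median 0.48, and 0.03 under same-total scaling). The highest was GLR2.8, at 0.861, 3.43 and 0 in urea and 239.5, 237 and 123 in L-Glu (log2 fold change 6.57 ± 0.77, adjusted p 8.93e-09), followed by GLR2.9, at 0.881, 6.55 and 1.76 in urea and 94.5, 139 and 37.9 in L-Glu (log2 fold change 4.56 ± 0.70, adjusted p 1.48e-06). GLR2.7, the third gene of this array on chromosome 2 (TAIR10.1, 12501092 to 12515947), went from 64.2, 74.1 and 69.9 to 212, 229.6 and 185 (log2 fold change 1.57 ± 0.18, adjusted p 8.44e-09). Replicate 3 of L-Glu was the lowest of its group in all 3 genes. GLR2.5, GLR1.3 and GLR1.4 rose by 2.12 ± 0.48, 1.84 ± 0.46 and 1.01 ± 0.30. Of 39 calmodulin-like and calcium-dependent kinase genes 21 rose and 5 fell (median 1.19). CML37, a calcium sensor induced by wounding, went from 3.76, 2.39 and 0 to 733, 499 and 1639 (log2 fold change 8.38 ± 0.71, adjusted p 6.53e-12), and the kinase CPK32 from 255, 170.4 and 156 to 3266, 2646 and 3245. Of 34 calcium channel and pump genes 20 rose and 4 fell, among them the wound-induced channel CNGC19 (5.33 ± 0.51) and the calcium pump ACA1 (4.31 ± 0.30).

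Enzymes that use glutamate had calls in both directions, also within single steps. Of 30 genes 10 rose and 11 fell (median 0.05, and -0.40 under same-total scaling). The glutamate decarboxylase gene GAD4, of the step from glutamate to GABA, had 22.2, 20.4 and 30.2 in urea and 1590.1, 1509.8 and 1289.8 in L-Glu (log2 fold change 5.87 ± 0.48, adjusted p 3.26e-12), and GAD1, another decarboxylase gene, had 1090.5, 1228 and 1190.3 in urea and 3118, 2702 and 2873 in L-Glu (log2 fold change 1.31 ± 0.15, adjusted p 3.87e-09). ASN1, an asparagine synthetase known from darkness and sugar starvation, had 132, 169 and 128 in urea and 1090.5, 1312 and 1729.6 in L-Glu (log2 fold change 3.24 ± 0.49, adjusted p 1.14e-06). ERD5, the proline dehydrogenase that breaks down proline, had 1713, 1752 and 1146 in urea and 5669, 4496 and 5856 in L-Glu (log2 fold change 1.81 ± 0.26, adjusted p 6.27e-07). In the same steps the decarboxylase gene GAD2 fell by 0.66, and the asparagine synthetases ASN2 and ASN3 fell by 1.3 and 0.67. POP2, of a later step of the GABA shunt, fell by 1.01. The call of ASN3 held in 17 of 20 alternative analyses. Among others, it was lost without urea replicate 2 or without L-Glu replicate 3, at adjusted p 0.052 and 0.0691. Of the nitrogen-assimilating enzymes, 6 of 8 glutamine synthetase and glutamate synthase genes fell and 1 rose, and their summed signal was 18890 to 19930 in urea and 10620 to 12810 in L-Glu. GLU1, the ferredoxin-dependent glutamate synthase of leaves, fell from 7624, 6848 and 6458 to 1872, 1545 and 1342 (log2 fold change -2.15 ± 0.20, adjusted p 4.01e-11). GLN1;4, a cytosolic glutamine synthetase, fell from 41.9, 51.7 and 67.3 to 11.3, 9.8 and 27.4 (log2 fold change -1.78 ± 0.33, adjusted p 3.72e-05).

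Transport of nitrogen compounds changed gene by gene. LHT1, a root and leaf importer of amino acids, went from 84.6, 145 and 120.3 to 4426, 4436 and 4515 (log2 fold change 5.28 ± 0.26, adjusted p 6.86e-17), and its 3 L-Glu libraries differed by less than 100 units. Of 16 amino acid transporter genes 8 rose and 3 fell (median 0.77). PROT2, a carrier of proline and betaine, rose by 3.08 ± 0.23 and AAP6 by 1.51 ± 0.21, whereas AAP2, of phloem loading, fell from 611.6, 658 and 579.9 to 148, 184 and 130.3 (log2 fold change -2.01 ± 0.29, adjusted p 5.2e-07). Of 24 genes for nitrate, ammonium and urea 7 rose and 5 fell (median 0.14, and -0.31 under same-total scaling). NRT1.8, which retrieves nitrate from the xylem, went from 0.853, 2.38 and 3.2 to 919.6, 1007 and 896 (log2 fold change 8.30 ± 0.55, adjusted p 2.7e-14). The high-affinity transporter genes NRT2.1 and NRT2.4 went in opposite directions, at 0, 3.24 and 0.507 in urea and 41.6, 32.4 and 39 in L-Glu for NRT2.1 and 8.82, 10.4 and 15.9 in urea and 1.71, 1.47 and 0.295 in L-Glu for NRT2.4. AMT2, an ammonium transporter, rose by 3.33 ± 0.33. The nitrate reductase gene NIA2 was at 1957, 1645 and 1444 in urea and 2277, 1470 and 1411 in L-Glu (log2 fold change 0.01 ± 0.32, adjusted p 0.986), and after quantile normalization it was called lower, at -0.79. DUR3, the urea importer, was at 55.4, 73.1 and 78.8 in urea and 58.1, 86.5 and 63.8 in L-Glu (log2 fold change 0.00 ± 0.25, adjusted p 0.994). Mean DUR3 signal was 19.8 ± 4.12 in mock seedlings at 0 h.

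Genes of phosphate and sulphate supply, a group outside nitrogen, rose with no member called lower: 18 of 24 were higher (median 1.51), with 2 lower under quantile and 3 under same-total scaling. Those of phosphate starvation gave 10 of 13 and those of sulphate uptake and assimilation 8 of 11. MGD3 and MGD2, galactolipid synthases that replace phospholipids under phosphate limitation, went from 8.63, 6.61 and 3.23 to 462, 479 and 476 and from 16.4, 26.7 and 30.2 to 872, 769 and 972. SPX1, a phosphate-sensing inhibitor of the starvation response, went from 637, 451 and 353 to 6992, 7675 and 6824 (log2 fold change 3.94 ± 0.35, adjusted p 1.7e-11). SPX3 rose by 5.58 ± 0.64. Neither treatment was labelled as changing phosphate or sulphate in the medium.

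Photosynthesis genes fell widely. Of 39 nuclear genes of photosystems and antennae 37 fell and 1 rose (median -1.27). LHCA1, an antenna protein of photosystem I, had values of 3884, 2482 and 6599 in urea and 921, 984 and 1282 in L-Glu (log2 fold change -1.92 ± 0.27, adjusted p 3.06e-07), PSAE-1, a photosystem I subunit, had 2595, 1493 and 3841 in urea and 554, 512 and 684 in L-Glu (log2 fold change -2.08 ± 0.24, adjusted p 7.2e-09), and LHB1B2, of the main antenna, had 14226, 11056 and 24501 in urea and 4086, 4648 and 5941 in L-Glu (log2 fold change -1.7 ± 0.28, adjusted p 7.34e-06). In these 3 genes urea replicate 3 was the highest and urea replicate 2 the lowest of their group, a spread wider than in L-Glu, and the treatments did not overlap. LHCB5 fell by 1.37. The member that rose, PSBP-2, had little signal, at 3.89, 2.15 and 0.618 in urea and 11.3, 8.34 and 8.05 in L-Glu. Its call held in 18 of 20 alternative analyses and was lost, among others, without urea replicate 3 (adjusted p 0.0628).

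In the Calvin cycle and photorespiration 17 of 22 genes fell and 0 rose (median -1.02), and their summed signal was 215200 to 238900 in urea and 114800 to 129200 in L-Glu. All 8 photorespiration genes fell, against 9 of 14 of the Calvin cycle. GLDP1, of the glycine decarboxylase complex, went from 19153, 18841 and 15122 to 5924, 4658 and 4222 (log2 fold change -1.85 ± 0.22, adjusted p 8.74e-09), SHM1, its partner in making serine, from 15992, 17009 and 15889 to 5862, 6985 and 5398 (log2 fold change -1.43 ± 0.20, adjusted p 3.47e-07), and GGAT1, the aminotransferase that uses glutamate in peroxisomes, from 10746, 10194 and 9443 to 3923, 3564 and 3170 (log2 fold change -1.51 ± 0.18, adjusted p 1.73e-08). Rubisco activase, RCA, which keeps Rubisco active, went from 44597, 47110.1 and 39999 to 21959, 18481 and 17123 (log2 fold change -1.2 ± 0.26, adjusted p 0.000212). FBA2, the plastid aldolase, and the carbonic anhydrase CA1 fell by 1.46 and 1.1. The small subunits of Rubisco differed: RBCS3B fell by 1.06, while RBCS1A was at 27710.5, 27886 and 25293 in urea and 23381, 23098 and 25636 in L-Glu (log2 fold change -0.17 ± 0.26, adjusted p 0.626). These copies are near-identical, and reads shared by them cannot always be assigned to a single copy.

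Chlorophyll genes had members called lower in synthesis and in breakdown, beside 25.8% of all genes higher and 21.9% lower. Of 14 synthesis genes 5 fell and 3 rose, and of 8 breakdown genes 6 fell and 0 rose. NYC1, which starts the breakdown of chlorophyll b, went from 1058, 1378 and 1083 to 308, 366 and 345 (log2 fold change -1.78 ± 0.23, adjusted p 5.64e-08), and SGR1 and PAO fell by 1.33 and 1.19. Of 10 senescence markers 6 rose and 1 fell, the latter being SAG29, at -1.55 with an adjusted p of 0.0342. That call held in 14 of 20 alternative analyses. Among others, it was lost without urea replicate 1 or 2 or L-Glu replicate 2, with log2 fold changes of -1.14, -1.59 and -0.78. SEN1, a dark-induced gene of the sugar starvation list, was at 1383, 2115 and 1426 in urea and 109, 193 and 301 in L-Glu (log2 fold change -3.11 ± 0.50, adjusted p 3.14e-06). Transcripts of the chloroplast genome were mostly not called, with 14 of 88 higher and 8 lower (median 0.67), and this turned to 4 and 19 under same-total and 9 and 17 under quantile scaling. Their summed signal was 10820 to 14470 in urea and 8859 to 9767 in L-Glu.

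Genes of growth fell in several groups. Of 25 genes of cell division 15 fell and 0 rose (median -0.89), with the cyclin CYCD3;2 at 128, 122 and 118 in urea and 45.1, 38.9 and 27.2 in L-Glu (log2 fold change -1.73 ± 0.20, adjusted p 6.88e-09). Ribosomal protein genes gave 104 lower and 11 higher of 290 (median -0.44), and 227 lower under same-total scaling. Of 29 proteasome subunits 17 fell, none by more than 0.89, and PAC1 was at 379, 351 and 350.3 in urea and 198, 217 and 189.8 in L-Glu. Of 25 aquaporins, the water channels, 15 fell and 0 rose, with PIP2A going from 1308, 1225 and 1418 to 568, 509.7 and 658 (log2 fold change -1.19 ± 0.20, adjusted p 8.91e-06). Cell wall groups had calls in both directions, beside 25.8% of all genes higher and 21.9% lower. Pectin enzymes and inhibitors gave 24 lower of 97, near the share of all genes, and 16 higher. Expansins and xyloglucan enzymes gave 8 lower and 17 higher of 48 (median 0.06, and -0.38 under same-total scaling), with XTH33 up from 1.85, 2.32 and 0.173 to 255, 93.5 and 228.

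Genes that answer or remove growth hormones differed by list. Of 16 Aux/IAA genes, repressors of auxin responses that auxin itself induces, 9 rose and 1 fell. IAA29 went from 2.81, 1.28 and 0 to 481, 241 and 428 (log2 fold change 7.49 ± 0.73, adjusted p 1.54e-10) and IAA2 from 127, 100.7 and 130.3 to 1908, 1492 and 2196 (log2 fold change 3.94 ± 0.34, adjusted p 1e-11). Of 13 cytokinin genes 7 rose and 1 fell, among them CKX4, which degrades the hormone (5.38 ± 0.56), and the response regulator ARR7 (4.33 ± 0.35). Brassinosteroid and gibberellin genes had 5 higher and 5 lower of 15 (median -0.35). GA2OX2, which inactivates gibberellin, rose from 15.4, 16.1 and 9.71 to 542, 473 and 752 (log2 fold change 5.32 ± 0.44, adjusted p 3.71e-12). For abscisic acid 6 of 24 genes rose and 4 fell (5 and 8 under same-total scaling). CYP707A3, which inactivates abscisic acid, went from 58.3, 2.39 and 8.89 to 4443, 3158 and 4053 (log2 fold change 8.26 ± 0.92, adjusted p 3.18e-09), with urea replicate 1 far above the other urea libraries. NCED4, a carotenoid cleavage dioxygenase, fell from 667, 636 and 895 to 79.5, 64.4 and 105 (log2 fold change -3.14 ± 0.36, adjusted p 5.52e-09).

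Detoxification and stress genes held some large single changes in families with calls in both directions. Of 45 glutathione S-transferases 15 rose and 11 fell (median 0.18, and -0.23 under same-total scaling), and of 50 UDP-glycosyltransferases 15 rose and 15 fell, with 11 and 19 under same-total scaling. GSTU11 went from 0.85, 0.255 and 0.768 to 268, 524 and 338 (log2 fold change 7.83 ± 0.54, adjusted p 5.3e-14), and UGT74E2, which glucosylates indole-butyric acid, from 1.82, 3.45 and 4.01 to 1499.6, 1988 and 1995 (log2 fold change 8.83 ± 0.80, adjusted p 3.2e-11). The peroxidase PER4 went from 19.3, 9.8 and 36.8 to 6842, 6548 and 5354 (log2 fold change 8.26 ± 0.61, adjusted p 2.71e-13), in a family with 15 of 52 higher and 11 lower, which became 14 and 18 under quantile and 9 and 21 under same-total scaling. Of 42 MATE carriers 16 rose and 6 fell (13 and 11 under same-total scaling), and DTX1 with its neighbours AT2G04050 and AT2G04070 on chromosome 2 rose by 5.12, 6.56 and 5.92.

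Alternative respiration, which bypasses the phosphorylating electron chain of mitochondria, gave 6 of 10 higher and 2 lower. The alternative oxidase AOX1A went from 199.5, 182 and 247 to 10439, 8145 and 12133 (log2 fold change 5.6 ± 0.47, adjusted p 4.24e-12), and AOX1D and the external NADH dehydrogenase NDB4 rose by 7.38 ± 0.66 and 9.17 ± 0.64. Of 59 heat shock proteins 13 rose and 12 fell (13 and 23 under quantile and 8 and 25 under same-total scaling), among the former the mitochondrial chaperone mtHsc70-1, at 339.7, 293 and 284 in urea and 5400.2, 4969 and 5391 in L-Glu. BZIP60, a factor of the unfolded protein response of the endoplasmic reticulum, went from 102, 83.8 and 78.5 to 5696, 4708 and 7640.1 (log2 fold change 6.06 ± 0.36, adjusted p 2.15e-15), in a list with 7 of 16 higher and 6 lower. Of 16 clock genes 6 rose and 2 fell (5 and 6 under quantile and 5 and 8 under same-total scaling, with a median of 0.03 and of -0.42 under the last), with PRR5 and FKF1 at 2.19 ± 0.29 and 2.65 ± 0.24. Of 16 flavonoid genes 9 fell and 0 rose. DFR, of anthocyanin synthesis, went from 326, 177 and 368 to 37.2, 37.9 and 36.3 (log2 fold change -2.87 ± 0.54, adjusted p 4.32e-05), LDOX fell by 2.33 and the chalcone synthase TT4 by 1.3, while PAL1, the entry to phenylpropanoids, was at 1087, 994 and 1074 in urea and 924, 948 and 682 in L-Glu (log2 fold change -0.32 ± 0.23, adjusted p 0.263).

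**Figure D4:**
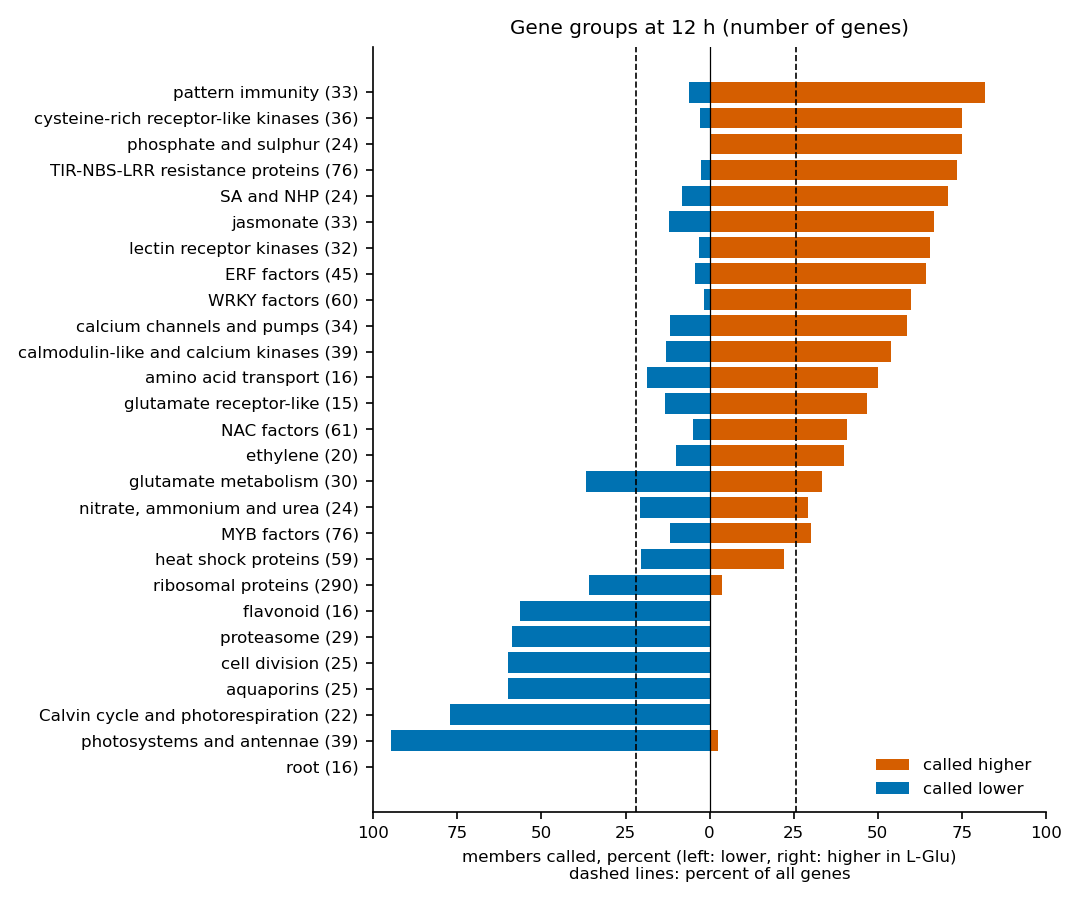
Share of members called higher (right) or lower (left) in 27 gene groups at 12 h, in percent, with the group size in brackets and dashed lines at the shares of all genes (25.8% higher, 21.9% lower). Immune receptor groups lie far to the right of the dashed line, photosystem, Calvin cycle, cell division and aquaporin groups far to the left, and none of the 16 genes of a longer root list was called.

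Markers of organs and reference genes were read as a check on the tissue. Of 12 root markers 0 rose and 0 fell (median -0.36), with summed signal of 3177 to 3793 in urea and 3507 to 3812 in L-Glu. PYK10, a root glucosidase, was at 3324, 3399.8 and 2721 in urea and 3472, 3407 and 3164 in L-Glu (log2 fold change 0.10 ± 0.24, adjusted p 0.772), and SCR, of the root endodermis, at 114, 119 and 126 in urea and 100.2, 107 and 91.9 in L-Glu (log2 fold change -0.26 ± 0.18, adjusted p 0.25). Under quantile and same-total scaling 5 and 5 of the root markers were called lower. Of 7 markers of green shoot 5 fell, from a summed signal of 106000 to 109300 to 53400 to 59290, and of 4 stomatal markers 2 fell. The green shoot markers are themselves genes of photosynthesis and photorespiration, among them RCA, GLDP1 and RBCS1A described above. Their fall therefore repeats that result and is no separate check on the amount of shoot. Of 8 markers of flowers and seeds, organs that a seedling lacks, only PI and SEP3 have a value here, and neither was called. The part of a changed share of shoot in the photosynthesis results was not tested. Of 8 genes used as references 3 fell and 0 rose. ACT2 went from 1812, 2006 and 1638 to 1289, 1365 and 1277 (log2 fold change -0.47 ± 0.13, adjusted p 0.00305) and ACT7 from 919, 974 and 879 to 411, 518 and 504 (log2 fold change -0.96 ± 0.15, adjusted p 1.47e-06), while UBQ10 was at 3650.3, 4703 and 5049 in urea and 4567, 4622 and 4582 in L-Glu and PP2AA3 at 218, 227 and 216 in urea and 204, 232 and 229 in L-Glu. PP2AA3 was called lower, at -0.30 and -0.45, under quantile and same-total scaling.

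The difference between L-Glu and urea was then set in time. At 6 h 2304 genes were called (11.5%), 8.36% of all genes higher and 3.15% lower, and at 24 h 12126 (60.6%), 29.3% higher and 31.3% lower. L-Glu 6 h replicate 2 stood apart from its group, at -43 on the first principal component of all 39 libraries against 5.38 and 9.73, and without it 2882 genes were called at 6 h. The 6 h and 12 h calls come from separate libraries: of the genes higher at 12 h, 1579 were also higher at 6 h, which is 30.6% of the 12 h list and 94.4% of the 6 h list, and of those lower at 12 h 529 were lower at 6 h, 12.09% of the 12 h list and 83.8% of the 6 h list. Of the genes higher at 12 h 4218 were higher at 24 h (81.6% of the 12 h and 71.97% of the 24 h list), and of those lower 3460 were lower at 24 h (79.1% and 55.2%). Opposite calls at 24 h were found for 85 genes that were higher and 38 that were lower at 12 h.

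Tested directly, the difference between the treatments changed from 6 to 12 h in 3291 genes (16.5%), upwards in 2315 (11.6%) and downwards in 976 (4.88%), and from 12 to 24 h in 3535 genes (17.7%), upwards in 1354 (6.77%) and downwards in 2181 (10.9%). The direction depended on the scaling: from 6 to 12 h the split was 2017 upwards and 2376 downwards under quantile and 1365 and 4474 under same-total scaling, and from 12 to 24 h it was 1212 and 1911 and then 463 and 6987. Same-total scaling moved the medians of all genes to -0.45 and -0.63 in these changes. The 6 to 12 h count depended on 1 library: without L-Glu 6 h replicate 2 it was 2158, with 557 downwards. These changes share the 12 h libraries with the comparison at 12 h, so the medians of the gene groups at each time are given side by side. Pattern immunity had medians of 0.97, 2.69 and 3.74 at 6, 12 and 24 h, and SA and NHP had 1.41, 3.27 and 3.50. The WRKY family had 1.05, 1.92 and 1.76. Photosystem and antenna genes had -0.33, -1.27 and -3.37, and Calvin cycle and photorespiration genes had -0.38, -1.02 and -4.41. The medians of the photosynthesis groups moved further from 12 to 24 h than from 6 to 12 h, although most members were called by 12 h: 1 of 39 photosystem genes was lower at 6 h, 37 at 12 h and 38 at 24 h. Without L-Glu 6 h replicate 2 the 6 h medians were 1.23 for pattern immunity, 1.68 for SA and NHP, 1.23 for WRKY, -0.36 for photosystems and -0.45 for the Calvin cycle group. Cell division genes had medians of -0.27, -0.89 and -0.54. Among the ACC synthases, ACS11 had log2 fold changes of 5.48, 8.95 and 6.50 at 6, 12 and 24 h, and ACS2 had 5.03, 9.29 and 10.88. The change from 12 to 24 h was called neither for ACS11 (log2 change -2.45 ± 1.13, adjusted p 0.139) nor for ACS2 (1.59 ± 0.86, adjusted p 0.223). A difference in timing between these genes was not tested.

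**Figure D5:**
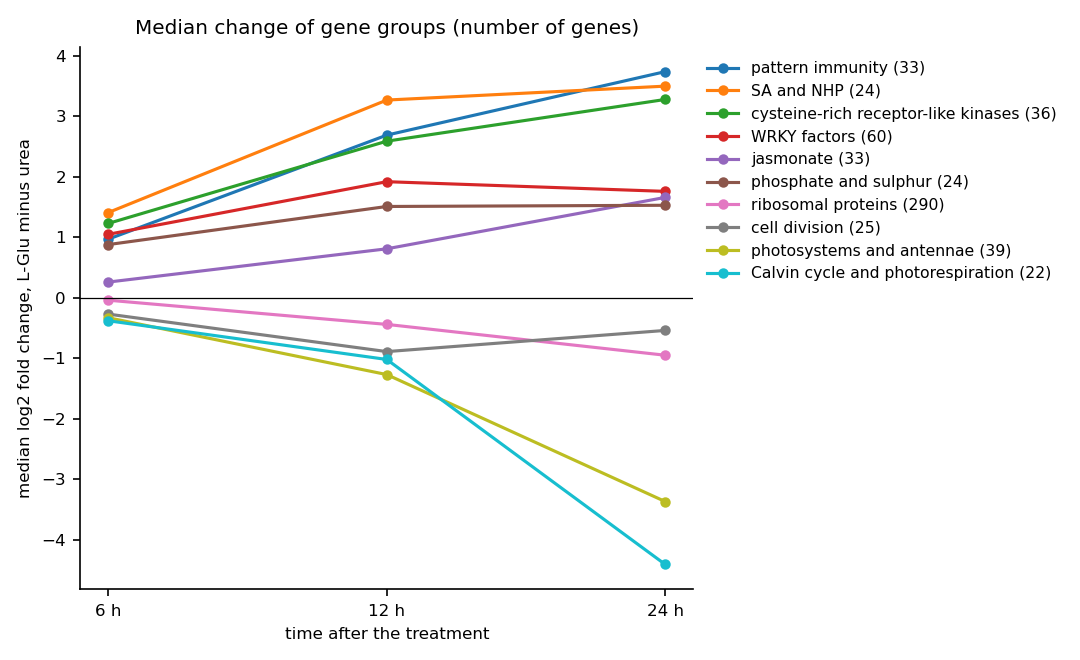
Median log2 fold change of L-Glu over urea (y axis) for 10 gene groups at 6, 12 and 24 h (x axis), with group sizes in brackets; each point is a median over genes from 3 libraries per treatment. Pattern immunity, SA and NHP, and CRK medians rise more from 6 to 12 h than from 12 to 24 h. The WRKY median is slightly lower at 24 h than at 12 h, and the jasmonate median rises more from 12 to 24 h. Photosystem and Calvin cycle medians fall more from 12 to 24 h than from 6 to 12 h. The 6 h points include L-Glu replicate 2, which stood apart from its group.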

How the data were processed

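RNA from whole seedlings was sequenced in 39 libraries, 3 in each of 13 groups taken from the sample titles. The authors deposited 1 table of normalized signal values per gene, and TAIR10 (the genome build), TopHat2 2.1.0, edgeR 3.22.3 and HTSeq 0.6.0 are listed in the submitters' processing notes. The sources used here do not give scaling, annotation or strandedness, and reads of a gene may include those of an antisense or overlapping partner. Whole reads were sought as multiples of a step, searched over a range and set to the best fit in each library. Low values (up to 20 steps) lay within 0.1 step of a whole multiple for 89.3%, 71.1% and 27.4% in the urea libraries at 12 h. In the L-Glu libraries at 12 h the shares were 23.2%, 27.3% and 22.4%. Whole reads could thus not be recovered, depth in reads is unknown, and count models were not used.

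Values were analysed as log2(value + 1). A gene was kept if 3 or more libraries had a value of 1 or more, which all 20001 met. One limma 3.58.1 fit (R 4.3.3) held all 39 libraries with 13 group means, an intensity trend and 26 residual degrees of freedom. Tests were two-sided and p-values were adjusted over all genes by Benjamini-Hochberg. The changes of the difference from 6 to 12 h and from 12 to 24 h were contrasts of the same fit.

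Names came from RefSeq TAIR10.1 for 19887 of 20001 identifiers, and so did promoters and coordinates. The members, the comparison and the 60 gene lists (30 of them families found by name) were chosen with earlier results of these data known. Of the listed genes, 46 are without a row in the table analysed, 18 symbols were not in the reference and 7 had no agreed identifier. Named genes were the 12 highest and 12 lowest fold changes without overlap and with a mean of at least 10, the 8 largest gains and losses, up to 6 called and 3 not called per list, the 5 largest changes with time in each direction, and fixed pathway, marker and reference genes. PROPEP2, PROPEP5, GAD2, POP2, ASN2 and ASN3 were named after their values were seen.

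Alternatives were other pseudocounts, filters, scalings, variance priors and sets of groups, a replicate block and leaving out libraries. Replicate numbers were not treated as pairs: deviations of same-numbered L-Glu and urea libraries at 12 h correlated at 0.0213, 0.0874 and 0.0209 across genes.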

Additional observations from a re-analysis of the deposited data

Results flagged for a closer look

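For the genes below the difference between L-Glu and urea at 12 h was itself tested against that at an earlier or later time, and the change passed the threshold. They are the 5 largest changes in each direction in each interval among genes whose mean reached 10 in one of the groups, plus NRT1.8, chosen after its values were seen. Groups of 3 libraries were not screened for single high or low libraries. Every change is a difference of log2 fold changes from the limma fit, with its SE.

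From 6 to 12 h the glucosyltransferase gene UGT74E2 changed most, by 7.25 ± 1.13 from a log2 fold change of 1.58 at 6 h to 8.83 at 12 h (adjusted p 2.93e-05). The transcription factor genes RRTF1 and BHLH92 changed by 6.92 ± 0.97 and 6.69 ± 0.99, from 3.66 and 2.9, the carrier gene AT5G52050 by 6.43 ± 1.01 from 4.52, and the NADH dehydrogenase gene NDB4 by 5.96 ± 0.90 from 3.21. Downward, the pectin methylesterase inhibitor gene AT5G62360 changed by -3.63 ± 0.71, from -1.12 to -4.76, and GASA6 by -3.54 ± 0.63, from -0.95 to -4.48. The DUF295 gene AT1G05540 changed by -3.11 ± 0.65 (adjusted p 0.000838), and this call was lost without replicate 3 of every group. The cold-regulated gene COR15B changed by -3.27 ± 0.95 (adjusted p 0.015), and LURP1 by -3.29 ± 1.17 (adjusted p 0.0488). The change of COR15B was no longer called without urea 6 h replicate 2 or without replicate 1 or replicate 3 of every group, and LURP1 without most single libraries.

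From 12 to 24 h the largest upward change was that of AT1G53540, a small heat shock protein gene, by 5.63 ± 1.13 from 1.13 at 12 h to 6.76 at 24 h (adjusted p 0.000396). The RING or U-box protein genes AT4G09110 and AT4G09130 changed by 5.38 ± 0.90 and 4.84 ± 0.84, the cytochrome P450 gene CYP81D11 by 5.22 ± 0.77, and AT4G39320, annotated as microtubule-associated, by 5.05 ± 0.68. The downward changes were in photosynthesis and related genes. RBCS2B, a Rubisco small subunit gene, changed by -5.77 ± 0.45, from -0.91 at 12 h to -6.68 at 24 h. Its 12 h call held in 18 of 20 alternative analyses and was lost, among others, without urea replicate 2 (adjusted p 0.059). The plastid aldolase gene FBA1 changed by -5.11 ± 0.35, the chloroplast RNA-binding protein gene CRB by -5.04 ± 0.27, the peroxisomal malate dehydrogenase gene PMDH2 by -4.96 ± 0.36 and RBCS1B by -4.95 ± 0.56. NRT1.8, far above urea at 12 h, changed by -2.91 ± 0.78 (adjusted p 0.00751), from 8.30 to 5.40, and this call was lost without replicate 1 of every group.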

How the results depend on the processing

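Scaling and the choice of libraries both moved the counts. With every library at the same total the 12 h comparison had 3339 genes higher and 8412 lower, the change from 6 to 12 h 5839 genes (1365 upwards and 4474 downwards) and the change from 12 to 24 h 7450 (463 and 6987). Quantile normalization gave 6965 lower at 12 h and 2376 downwards from 6 to 12 h. Leaving out libraries gave 7003 to 8794 genes at 12 h (4117 to 4840 higher and 2886 to 3954 lower), 1657 to 3276 from 6 to 12 h (1316 to 2341 upwards and 238 to 964 downwards) and 1600 to 3681 from 12 to 24 h (484 to 1386 and 1116 to 2295). The lowest totals came without replicate 1 of every group, a fit with fewer libraries. At 6 h, 2882 genes (2111 higher and 771 lower) were called without L-Glu replicate 2, an alternative chosen after seeing the data.

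Genes whose sign turned were mostly not called and near 0 as deposited. Under quantile and then same-total scaling ACO4 was at -0.47 and -0.14, NIA2 at -0.79 and -0.45, DUR3 at -0.25 and -0.45, UBQ10 at -0.6 and -0.4, PP2AA3 at -0.3 and -0.45 and PYK10 at -0.62 and -0.36. RBCS1A was at 0 under quantile scaling, and DUR3 at 0 with recomputed trimmed-mean factors. With libraries left out NIA2 ran from -0.21 to 0.13, DUR3 from -0.16 to 0.12, UBQ10 from -0.09 to 0.15, PP2AA3 from -0.03 to 0.06, PYK10 from -0.01 to 0.15 and VSP2 from -0.52 to 1.67. The causes were not tested. Called genes that lost their call without replicate 1 of every group included RBCS3B, GLR1.4 and ACT2, and TT4 did so without replicate 3 of every group.

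The replicate number as a block gave 9829, 3627 and 3787 genes for the comparison and the changes with time, and it changed 0 of 192 calls of named genes. L-Glu replicate 3 at 12 h correlated best with urea replicate 1 (0.0457). Between 6 and 12 h every library correlated best with its own number, at 0.0961, 0.156 and 0.0932 in L-Glu and 0.0519, 0.119 and 0.0831 in urea. This is a hint from the data, not from the design, and the labels give the samples only a shared number. Replicate 2 also shared a floor without exact zeros in both treatments at 6 h. Replicates 1 and 3 at 6 h had 293 and 274 genes at 0 in urea and 190 and 134 in L-Glu. The part of this floor in the correlations was not tested. A fit of only the groups compared gave 9849, 3512 and 3382. The deposited values do not give depth, so what depth limits could not be measured, and genes near 0 in both treatments are the least certain.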

Other observations

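Gene groups not described so far are given beside the shares of all genes, 25.8% higher and 21.9% lower. Of 16 phenylpropanoid genes, of lignin and related phenolics, 8 fell and 2 rose (median -0.54), and 14 fell under same-total scaling. Most core histone genes were not called, with 6 lower and 2 higher of 39, and 16 lower under same-total scaling. Of 13 transcripts of the mitochondrial genome 0 rose and 0 fell, with 2 lower under same-total scaling.

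Other groups had calls in both directions. Of 29 SAUR genes, small auxin-induced proteins of elongation, 11 rose and 5 fell (9 and 9 under same-total scaling), and of 26 cellulose synthase genes 10 rose and 9 fell (8 and 12). Glutaredoxins, which reduce disulphides with glutathione, gave 7 higher and 2 lower of 18 (4 and 4). Iron genes gave 3 and 1 of 11 (0 and 2), sugar starvation genes 4 and 3 of 13 (3 and 3), and autophagy genes, which recycle cell contents, 3 and 4 of 18 (3 and 11). Across the 5 nuclear chromosomes the share of genes called higher ran from 24.7% to 27.2% and the share called lower from 21.7% to 22.7%.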
